A study of Mus musculus with 18 samples.

Results

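Interferon regulatory factor (IRF) genes other than Irf3, 6 in number, were followed across every endothelial library of the series: Irf1, Irf2, Irf5, Irf7, Irf8 and Irf9. They were taken by gene name from the expression table, and all 6 were found and all 6 passed the filter on low values, out of 16248 genes listed and 13983 tested. Libraries came from endothelial cells (ECs, the inner lining of blood vessels) of FVB mice, sorted as live cells that lacked CD45 and carried CD31. Tissues of 3 kinds were sampled. Normal ECs were those of the fat pad of mammary glands in wild-type animals. MMTV-PyMT ECs came from tumours that arose by themselves in transgenic mice, in which the mouse mammary tumour virus promoter drives the polyoma middle T oncogene mainly in the mammary epithelium. Implanted ECs came from tumours grown in the fat pad of wild-type FVB hosts after cultured tumour cells from MMTV-PyMT mice had been put there, so the ECs of this group belonged to hosts without the transgene. Each tissue was injected with phosphate-buffered saline (PBS) or with cGAMP, a cyclic dinucleotide that activates the adaptor protein STING, and was collected 3 h later. The 6 groups held 3 libraries each, 18 in all.

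IRFs are transcription factors that share a DNA-binding domain and recognise GAAA repeats, the core of the interferon-stimulated response element (ISRE). IRF3, activated by phosphorylation downstream of STING and the kinase TBK1, starts the type I interferon response, whereas several of its relatives are themselves made in response to interferon. IRF9 joins STAT proteins in the complex ISGF3, IRF7 amplifies type I interferon production, IRF1 drives many genes that interferon-gamma induces, and IRF2 can compete with IRF1 for its sites. IRF5 and IRF8 are known mostly from myeloid cells and B cells.

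The promoters of the members are described first, because they differ in the elements they hold, and stretches are printed for members with a match. RefSeq windows (build GRCm38.p6, 250 bases before to 50 after a start) were at hand for 6 of 6 members, 9 windows in all, and were searched on both strands for GAAANNGAA (the ISRE core), TTCNNNGAA (GAS, bound by STAT dimers and its own reverse complement) and the NF-kB motif. Over 32851 windows of the same length, 8.56% held the ISRE core, 8.3% held GAS and 4.51% held the NF-kB motif. GAS was found in 3 members (Irf1, Irf2 and Irf8), the NF-kB motif in 2 (Irf1 and Irf2) and this form of the ISRE core in 1 (Irf2). Counted by window, as the shares above are, these were 3, 2 and 1 of 9. Irf5, Irf7 and Irf9 held none of these letters in their windows. The stretches below end at or before the base preceding the start, run 5′ to 3′ on the strand of the gene, and carry the matches in capitals. A match describes letters and not a bound site.
Irf1, chr11:53769904-53770013, plus strand, GAS then NF-kB: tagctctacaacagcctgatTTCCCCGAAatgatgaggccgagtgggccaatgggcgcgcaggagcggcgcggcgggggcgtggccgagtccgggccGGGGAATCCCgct
Irf2, chr8:46739495-46739744, plus strand, ISRE core, GAS and NF-kB: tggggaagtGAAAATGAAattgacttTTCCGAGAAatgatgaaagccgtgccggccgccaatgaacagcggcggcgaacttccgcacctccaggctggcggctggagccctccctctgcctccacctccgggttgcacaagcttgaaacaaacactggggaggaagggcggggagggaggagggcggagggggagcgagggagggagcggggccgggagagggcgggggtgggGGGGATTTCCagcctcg
Irf8, chr8:120736167-120736233, plus strand, both GAS: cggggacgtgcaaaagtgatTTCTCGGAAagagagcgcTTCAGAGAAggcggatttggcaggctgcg

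Whole reads recovered from the FPKM values (read fragments divided by gene length and by the authors' library scaling) amounted to 9184556 to 12200414 per library. The members rested on 852 to 6929 reads per library for Irf1, 298 to 1578 for Irf2, 189 to 6863 for Irf7, 120 to 3425 for Irf8 and 609 to 2091 for Irf9, while Irf5 was counted least, with 15 to 499. Endothelial markers (10 of 10 listed) summed to 907 to 1569 FPKM as a group mean. Markers of other cells were present beside them. Epithelial markers (6 of 6 listed) summed to 876 FPKM in MMTV-PyMT PBS libraries, close to the 907 FPKM of endothelial markers there, and to 356 to 711 FPKM in the other groups. In MMTV-PyMT PBS libraries Epcam was at 204 FPKM and Krt8 at 231 FPKM, against 156 FPKM for Pecam1, which encodes CD31. Mural and fibroblast markers (6 of 6) summed to 330 to 875 FPKM, highest in normal PBS libraries. Leukocyte markers (5 of 5 listed, none at 0) summed to 5.21 to 121 FPKM, and 2 libraries stood apart. In normal cGAMP 1 the sum was 105 FPKM against 10.8 and 9.78 in the other cGAMP libraries of that tissue, and in implanted cGAMP 2 it was 121 FPKM against 22.4 and 21.5. The counts of members past the test and the values of Irf5 and Irf8 are given with and without them. In bulk samples, fewer cells of a type and less RNA per cell cannot be told apart.

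cGAMP raised IRF genes in ECs of all 3 tissues. The difference of group means on the log2(FPKM + 1) scale was tested with limma, with Benjamini-Hochberg adjustment over all 13983 genes, and a gene passed at an adjusted p under 0.05. In normal ECs 5 of 6 members passed as higher, against 13.7% of all tested genes, and 4 of them rose at least 2-fold on this scale, against 3.02%. In MMTV-PyMT ECs 6 of 6 passed (7.42% of all genes), with Irf5 close to the threshold at an adjusted p of 0.0495, and 5 rose at least 2-fold (2.49%). In implanted ECs 6 of 6 passed (20.3%) and 5 rose at least 2-fold (6.13%). For normal, MMTV-PyMT and implanted ECs in that order, the 6 members had a median log2 change of 1.74, 1.85 and 1.83, and all tested genes of -0.04, -0.04 and -0.01. Without normal cGAMP 1 and implanted cGAMP 2, the counts of members past the test were again 5, 6 and 6.

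**Figure D1:**
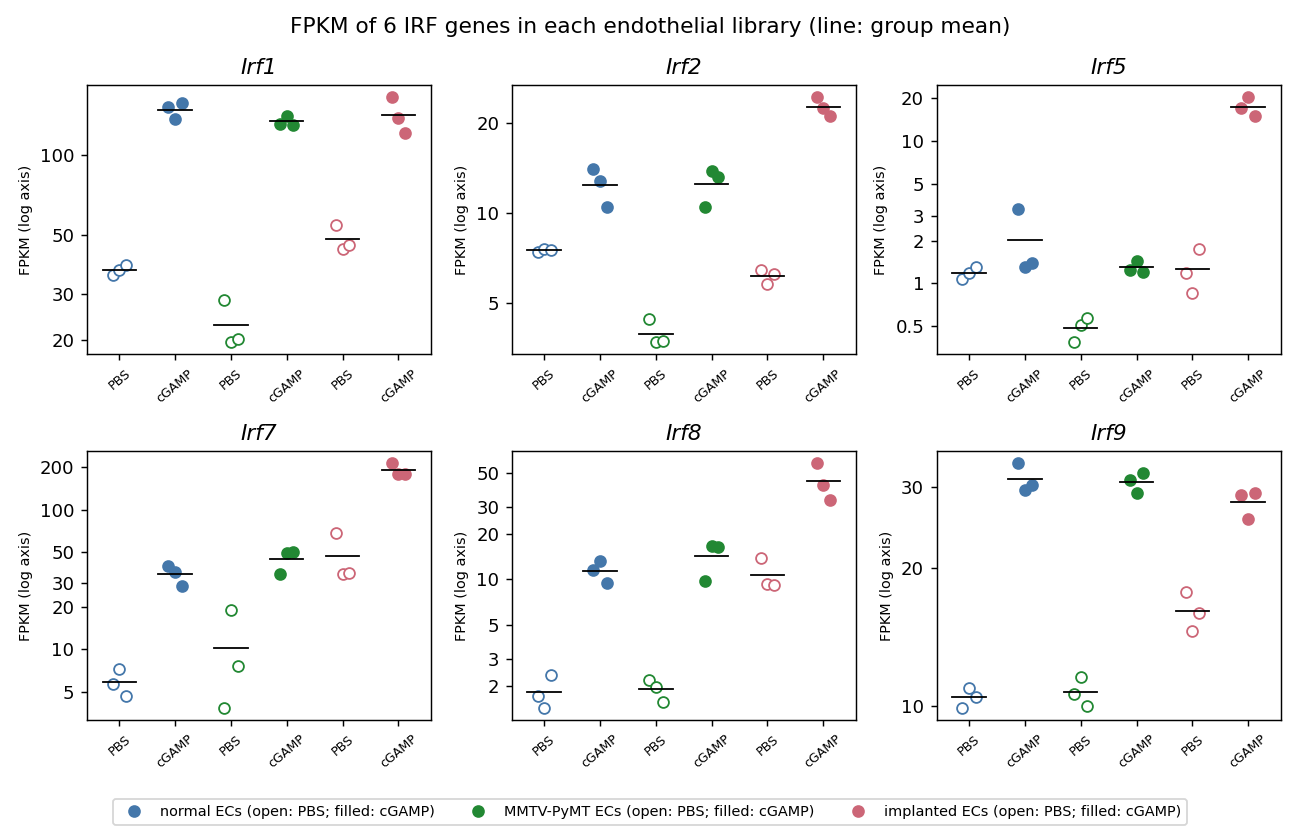
FPKM (log axis) of each IRF gene in the 18 libraries by tissue and treatment, with open points for PBS, filled points for cGAMP and a line at each group mean. The 3 cGAMP libraries lie above the 3 PBS libraries of the same tissue in every panel, and Irf5 is high in the implanted cGAMP libraries, at 15.0 to 20.4 FPKM.

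**Figure D2:**
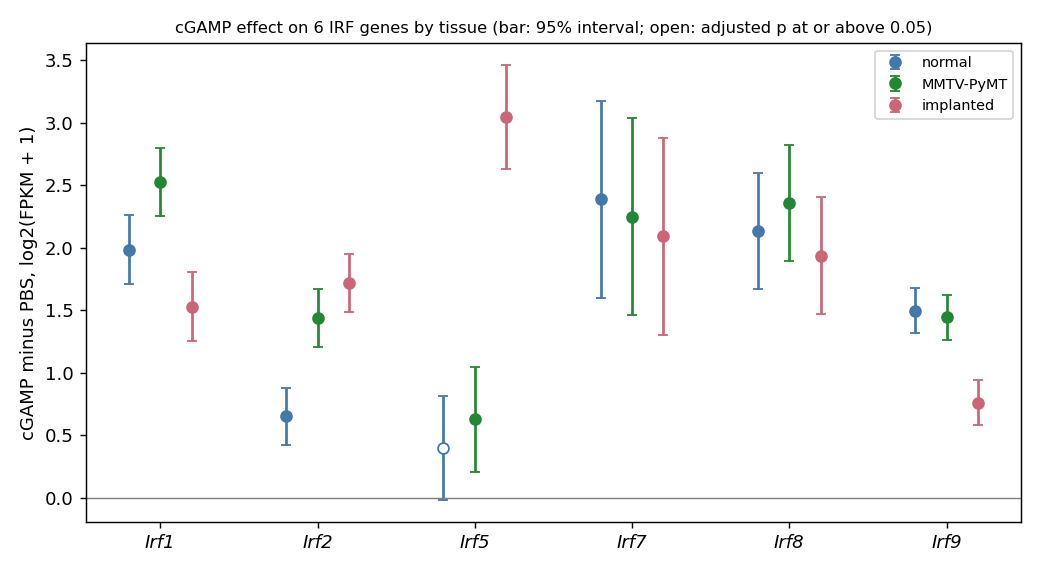
Difference of cGAMP and PBS means on the log2(FPKM + 1) scale for each member and tissue, with 95% intervals from the limma fit and an open point where the adjusted p was 0.05 or more. Irf7 and Irf8 have wide intervals that share a range in all 3 tissues, whereas Irf5 reaches 3.05 in implanted ECs against 0.40 (normal) and 0.63 (MMTV-PyMT).

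Irf9 (chromosome 14, 55603571 to 55610030, plus strand, GRCm38), the DNA-contacting subunit of ISGF3, was moderately expressed. In normal ECs it stood at 9.89, 10.9 and 10.4 FPKM in the PBS libraries and at 33.9, 29.6 and 30.3 FPKM in the cGAMP libraries. In MMTV-PyMT ECs it stood at 10.6, 11.5 and 9.97 FPKM under PBS and at 31.1, 29.2 and 32.2 FPKM under cGAMP. In implanted ECs the PBS libraries gave 17.7, 14.6 and 15.9 FPKM and the cGAMP libraries 28.9, 25.6 and 29.2 FPKM. By the authors' scaling every tissue ended near the same level under cGAMP, with overlapping ranges between neighbours, but implanted ECs began higher. The FPKM denominators were 0.735 to 0.830 times the read totals in implanted cGAMP libraries and 1.09 to 1.15 times in normal cGAMP libraries. Scaling by read totals would therefore lower the implanted level against the normal one under cGAMP. The mean rose 3.00-fold in normal ECs (log2 change 1.50 ± 0.09 SE, adjusted p = 5.42e-09), 2.88-fold in MMTV-PyMT ECs (1.44 ± 0.09, adjusted p = 4.38e-09) and 1.74-fold in implanted ECs (0.76 ± 0.09, adjusted p = 3.25e-06), the last being 0.46 on recovered read totals (adjusted p = 0.000609). The rise was smaller in implanted ECs than in normal ECs by 0.73 (95% interval 0.48 to 0.99, adjusted p = 0.000598) and than in MMTV-PyMT ECs by 0.68 (0.43 to 0.94, adjusted p = 0.00182). Between MMTV-PyMT and normal ECs the difference of the rise was -0.05 (-0.31 to 0.20, adjusted p = 0.841). Irf9 shares 2.28% of its exon bases with Rnf31 on the same strand, where reads can be ascribed to either gene or dropped.

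Stat2, which encodes a partner of IRF9 in ISGF3, rose in all 3 tissues, with mean FPKM of 5.22 and 24.5 (normal PBS and cGAMP), 3.50 and 30.2 (MMTV-PyMT) and 13.3 and 67.2 (implanted, adjusted p = 1.46e-08, 1.88e-10 and 1.33e-09). The difference of the rise between implanted and normal ECs was 0.22 for Stat2 and did not pass (adjusted p = 0.441).

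Irf7 (chromosome 7, 141262706 to 141266481, minus strand), the amplifier of type I interferon production, had the highest FPKM of the members in implanted ECs under cGAMP. In normal ECs the PBS libraries gave 5.65, 7.26 and 4.62 FPKM and the cGAMP libraries 39.6, 36.0 and 28.6 FPKM. In MMTV-PyMT ECs they gave 3.83, 19.2 and 7.67 FPKM under PBS and 34.7, 49.0 and 49.9 FPKM under cGAMP. In implanted ECs they gave 68.5, 34.9 and 35.4 FPKM under PBS and 215, 179 and 180 FPKM under cGAMP. The PBS libraries of implanted ECs thus overlapped the cGAMP libraries of normal and MMTV-PyMT ECs, while no PBS library overlapped the cGAMP libraries of its own tissue. The mean rose 5.94-fold (log2 change 2.39 ± 0.37 SE, adjusted p = 0.000194), 4.35-fold (2.25 ± 0.37, adjusted p = 0.000638) and 4.13-fold (2.09 ± 0.37, adjusted p = 0.000332) in normal, MMTV-PyMT and implanted ECs. No difference of the rise between tissues passed. It was -0.30 between implanted and normal ECs (95% interval -1.42 to 0.82), -0.16 between implanted and MMTV-PyMT ECs (-1.27 to 0.96) and -0.14 between MMTV-PyMT and normal ECs (-1.26 to 0.97), and the intervals are wide.

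Irf1 (chromosome 11, 53770014 to 53778374, plus strand), the activator of many interferon-gamma targets, had the highest group mean of the members in 5 of the 6 groups. In normal ECs it stood at 35.4, 36.8 and 38.4 FPKM under PBS and at 152, 137 and 158 FPKM under cGAMP. In MMTV-PyMT ECs it stood at 28.3, 19.8 and 20.3 FPKM under PBS and at 131, 141 and 131 FPKM under cGAMP. In implanted ECs it stood at 54.6, 44.5 and 45.9 FPKM under PBS and at 166, 138 and 122 FPKM under cGAMP. By the authors' scaling, tissues differed under PBS without overlap. Under cGAMP they reached ranges that overlapped between neighbours, with means of 134 to 149 FPKM on that scaling. The mean rose 5.90-fold in MMTV-PyMT ECs (log2 change 2.53 ± 0.13 SE, adjusted p = 6.47e-10), 4.04-fold in normal ECs (1.98 ± 0.13, adjusted p = 2.41e-08) and 2.94-fold in implanted ECs (1.53 ± 0.13, adjusted p = 1.30e-07). The rise of Irf1 in implanted ECs was below that in MMTV-PyMT ECs by 0.998 (95% interval 0.61 to 1.39, adjusted p = 0.00232). The other contrasts did not pass, at -0.46 between implanted and normal ECs (adjusted p = 0.0954) and 0.54 between MMTV-PyMT and normal ECs (adjusted p = 0.0792). The first of these passed on another scaling, at -0.77 on recovered read totals (adjusted p = 0.00433) and at -0.94 after quantile normalization (adjusted p = 0.00172). Leaving out implanted cGAMP 1 or MMTV-PyMT PBS 1 brought both past the threshold, with adjusted p of 0.0343 and 0.0447 for implanted against normal ECs and of 0.0478 and 0.0194 for MMTV-PyMT against normal ECs.

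Irf2 (chromosome 8, 46739732 to 46847458, plus strand), a competitor of IRF1 at shared sites, was lower and rose most in tumour ECs. In normal ECs its PBS libraries gave 7.43, 7.59 and 7.51 FPKM and its cGAMP libraries 14.0, 12.8 and 10.5 FPKM. MMTV-PyMT ECs gave 4.42, 3.72 and 3.74 FPKM under PBS and 10.5, 13.8 and 13.2 FPKM under cGAMP. Implanted ECs gave 6.45, 5.79 and 6.28 FPKM under PBS and 24.4, 22.4 and 21.1 FPKM under cGAMP. The cGAMP libraries of implanted ECs lay above all other libraries, and those of normal and MMTV-PyMT ECs overlapped. The mean rose 1.66-fold in normal ECs (log2 change 0.65 ± 0.11 SE, adjusted p = 0.000344), 3.16-fold in MMTV-PyMT ECs (1.44 ± 0.11, adjusted p = 8.12e-08) and 3.67-fold in implanted ECs (1.72 ± 0.11, adjusted p = 5.15e-09). Both tumour tissues exceeded normal ECs in this rise, by 0.79 for MMTV-PyMT (95% interval 0.46 to 1.11, adjusted p = 0.00667) and by 1.07 for implanted ECs (0.74 to 1.39, adjusted p = 0.000203). Implanted and MMTV-PyMT ECs differed by 0.28 (-0.04 to 0.61, adjusted p = 0.280).

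Irf5 (chromosome 6, 29526625 to 29541871, plus strand), which acts downstream of Toll-like receptors and MYD88, had the lowest group mean of the members in every group and a response that differed between tissues. Normal ECs gave 1.08, 1.19 and 1.30 FPKM under PBS and 3.34, 1.32 and 1.39 FPKM under cGAMP. MMTV-PyMT ECs gave 0.389, 0.508 and 0.569 FPKM under PBS and 1.24, 1.45 and 1.21 FPKM under cGAMP. Implanted ECs gave 1.18, 0.855 and 1.74 FPKM under PBS and 17.2, 20.4 and 15.0 FPKM under cGAMP. The implanted cGAMP libraries were therefore far above the other 15, of which the highest, normal cGAMP 1, was at 3.34 FPKM. In implanted ECs the mean rose 13.9-fold (log2 change 3.05 ± 0.20 SE, adjusted p = 6.37e-09). In MMTV-PyMT ECs the rise was 0.63 ± 0.20 with an adjusted p of 0.0495, which was 0.0578 with no filter on low values and 0.0955 after quantile normalization. The call was also lost with the replicate number as a block. Leaving out 1 library kept the call only for normal cGAMP 1, 2 or 3, implanted PBS 2 or 3 and implanted cGAMP 2, and the other 12 libraries gave adjusted p of 0.0510 to 0.165. This change is understated by the pseudocount of 1, and was 1.25 with a pseudocount of 0.1 (adjusted p = 0.0104) and 1.40 with voom on recovered reads (adjusted p = 0.0428). In normal ECs the change was 0.40 ± 0.20 and did not pass (adjusted p = 0.135). The rise in implanted ECs exceeded that in normal ECs by 2.65 (95% interval 2.06 to 3.24, adjusted p = 1.51e-05) and that in MMTV-PyMT ECs by 2.42 (1.83 to 3.01, adjusted p = 7.92e-05). Between MMTV-PyMT and normal ECs the difference was 0.23 (-0.36 to 0.82, adjusted p = 0.672). Irf5 shares 14.1% of its exon bases with Tnpo3 on the opposite strand, and the sources used here do not say if reads were counted by strand.

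Markers of blood cells moved with Irf5 in part. Normal cGAMP 1, the normal library with the most Irf5, also had the most leukocyte signal of its tissue, and without it the change in normal ECs was 0.11 (adjusted p = 0.642). In implanted ECs the leukocyte sum was 16.7, 9.97 and 19.1 FPKM under PBS and 22.4, 121 and 21.5 FPKM under cGAMP. Implanted cGAMP 1 and 3 held 17.2 and 15.0 FPKM of Irf5, with leukocyte sums close to that of implanted PBS 3, the highest under PBS. Of the leukocyte markers, Ptprc lay at 0.370 to 1.09 FPKM under PBS and at 1.70 to 9.24 FPKM under cGAMP. Cd53 lay at 2.92 to 5.98 and 7.71 to 34.7 FPKM, so both were higher in every implanted cGAMP library. Coro1a, Laptm5 and Cd52 overlapped between PBS and cGAMP, and 0 of the 5 markers passed in implanted ECs. Without implanted cGAMP 2 the change of Irf5 in implanted ECs was 2.94 (adjusted p = 6.44e-08). Without both libraries it exceeded that of normal ECs by 2.83 (adjusted p = 4.13e-06). Myeloid markers (11 of 12 listed, Itgam not among them) summed to 130 to 202 FPKM under PBS and to 159, 549 and 180 FPKM under cGAMP in implanted ECs. Cd14 gave 87.7 FPKM of this sum as a group mean under PBS and 91.3 FPKM under cGAMP. Tyrobp lay at 3.56 to 5.14 FPKM under PBS and at 5.74 to 25.5 FPKM under cGAMP. Fcer1g lay at 1.68 to 5.09 and 5.88 to 25.3 FPKM, and the other myeloid markers overlapped. Of 11 tested, 3 passed as higher and 0 as lower, against 20.3% and 18.8% of all genes. Dendritic markers (3 of 6 listed, not Flt3, Siglech or Cd209a) summed to 5.99, 6.20 and 7.53 FPKM under PBS and to 17.5, 17.7 and 12.2 FPKM under cGAMP, so this sum was raised in every implanted cGAMP library. Under cGAMP, Clec9a gave 15.4, 7.11 and 10.6 FPKM of it and Itgax 2.04, 9.73 and 1.60 FPKM, so Itgax was the larger in implanted cGAMP 2. In the PBS libraries Clec9a gave 3.48 to 5.32 FPKM and Itgax 0.729 to 2.38 FPKM, so Itgax left its PBS range only in implanted cGAMP 2. Xcr1 lay at 0.152 to 0.295 FPKM under PBS and at 0.0444 to 0.908 FPKM under cGAMP. Of the 2 dendritic markers tested, 1 passed as higher in implanted ECs, against 20.3% of all genes. The part of such cells in the Irf5 signal was not tested. Spi1, the myeloid partner PU.1, lay at 0.157 to 1.02 FPKM in all libraries but implanted cGAMP 2, which had 3.71 FPKM.

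**Figure D3:**
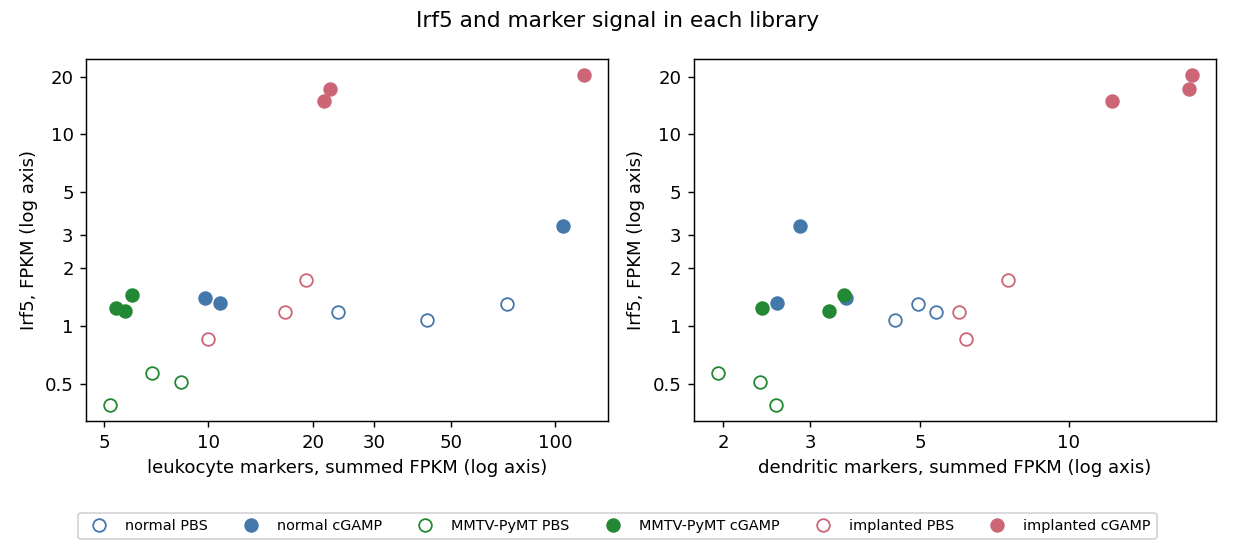
Irf5 against the summed FPKM of 5 leukocyte markers (left) and of the 3 listed dendritic markers (right), on log axes, with 1 point per library. The implanted cGAMP libraries lie at 15.0 to 20.4 FPKM of Irf5 while their leukocyte sums are 21.5, 22.4 and 121 FPKM. Their dendritic sums, 12.2 to 17.7 FPKM, are above those of all other libraries, and Clec9a alone gives 7.11 to 15.4 FPKM of them.

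Irf8 (chromosome 8, 120736358 to 120756694, plus strand), best known as a factor of myeloid and dendritic cell development, was detected in the libraries of every group. Normal ECs gave 1.70, 1.43 and 2.34 FPKM under PBS and 11.5, 13.2 and 9.49 FPKM under cGAMP. MMTV-PyMT ECs gave 2.17, 1.96 and 1.57 FPKM under PBS and 9.78, 16.5 and 16.2 FPKM under cGAMP. Implanted ECs gave 13.8, 9.27 and 9.15 FPKM under PBS and 58.1, 41.9 and 33.2 FPKM under cGAMP. As with Irf7, the PBS libraries of implanted ECs overlapped the cGAMP libraries of normal and MMTV-PyMT ECs. The mean rose 6.24-fold (log2 change 2.13 ± 0.22 SE, adjusted p = 3.57e-06), 7.46-fold (2.36 ± 0.22, adjusted p = 1.10e-06) and 4.13-fold (1.94 ± 0.22, adjusted p = 3.54e-06) in normal, MMTV-PyMT and implanted ECs. The differences of the rise were -0.20 between implanted and normal (95% interval -0.86 to 0.46), -0.42 between implanted and MMTV-PyMT (-1.08 to 0.24) and 0.22 between MMTV-PyMT and normal ECs (-0.44 to 0.88), and none passed. The library with the most Irf8, implanted cGAMP 1, had a leukocyte sum of 22.4 FPKM, and implanted cGAMP 2, with 121 FPKM, had less Irf8. The dendritic sum moved with Irf8 in implanted ECs, from 5.99 to 7.53 FPKM under PBS to 12.2 to 17.7 FPKM under cGAMP. Of its markers, Clec9a went from 3.48 to 5.32 FPKM under PBS to 7.11 to 15.4 FPKM under cGAMP. Itgax (0.729 to 2.38 and 1.60 to 9.73 FPKM) and Xcr1 (0.152 to 0.295 and 0.0444 to 0.908 FPKM) overlapped between PBS and cGAMP. In normal ECs it was 4.45 to 5.40 FPKM under PBS and 2.57 to 3.54 FPKM under cGAMP, and in MMTV-PyMT ECs 1.95 to 2.56 and 2.40 to 3.51 FPKM. The part of dendritic cells in the Irf8 signal was not tested. Without the 2 libraries that stood apart, the rise was 2.12 in normal and 1.96 in implanted ECs (adjusted p = 5.63e-05 and 4.01e-05). In MMTV-PyMT ECs the leukocyte sum was 5.21 to 8.35 FPKM over the 6 libraries and the rise of Irf8 was 2.36. The part of leukocytes in the Irf8 signal was not tested in any tissue.

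Counted over members, the difference of the cGAMP effect passed for 1 of 6 between MMTV-PyMT and normal ECs (8.37% of all genes), for 3 of 6 between implanted and normal ECs (18.6%) and for 3 of 6 between implanted and MMTV-PyMT ECs (11.1%). The members of the first count were Irf2, of the second Irf2 and Irf5 (larger in implanted ECs) and Irf9 (smaller), and of the third Irf5 (larger) and Irf1 and Irf9 (smaller). These contrasts share libraries and are not independent of one another.

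Under PBS, the tissues also differed. Between MMTV-PyMT and normal ECs 3 of 6 passed, all lower in MMTV-PyMT ECs, against 56.5% of all genes that passed in either direction and 26.6% that passed as lower. They were Irf1 (log2 difference -0.69, adjusted p = 0.000317), Irf2 (-0.78, adjusted p = 1.81e-05) and Irf5 (-0.56, adjusted p = 0.0239). Between implanted and normal ECs 4 of 6 passed, all higher in implanted ECs (48.7% of all genes in either direction, 25% as higher). Irf7 was 7.92-fold and Irf8 5.88-fold higher by group means (2.73, adjusted p = 1.79e-05, and 2.04, adjusted p = 1.49e-06), while Irf9 (0.58, adjusted p = 4.33e-05) and Irf1 (0.38, adjusted p = 0.0240) differed less. Irf2 differed by -0.25 (adjusted p = 0.0702) and Irf5 by 0.03 (adjusted p = 0.924). Between implanted and MMTV-PyMT ECs 6 of 6 were higher in implanted ECs, with 45.5% of all genes past the test in either direction and 20.8% as higher, and the differences ran from 0.53 for Irf2 to 2.25 for Irf7. The shares of members past the test in either direction in the first and second contrasts are near those of all genes.

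Markers of cell makeup were counted in the same PBS contrasts, to be read against the shares of all genes. As higher and lower, these were 29.8% and 26.6% for MMTV-PyMT against normal ECs and 25% and 23.6% for implanted against normal ECs. For implanted against MMTV-PyMT ECs they were 20.8% and 24.6%. Between MMTV-PyMT and normal ECs 6 of 10 endothelial markers passed as lower (median log2 difference -0.48), as did 4 of 5 leukocyte markers (-1.92) and 4 of 6 mural and fibroblast markers (-1.01), while 4 of 6 epithelial markers passed as higher (1.27). The leukocyte sum was 42.7, 23.6 and 72.5 FPKM in normal PBS libraries and 5.21, 8.35 and 6.87 FPKM in MMTV-PyMT PBS libraries, so it was lower in the tissue with less Irf1, Irf2 and Irf5. Between implanted and MMTV-PyMT ECs 7 of 10 endothelial markers passed as higher and 1 as lower (0.69), 5 of 6 epithelial markers as lower (-1.04) and none of the 5 leukocyte markers in either direction (0.84). Between implanted and normal ECs 4 endothelial markers passed as higher and 2 as lower (0.23), 1 leukocyte marker as lower (-1.42), 2 epithelial markers as higher and 1 as lower (0.20), and 1 mural and fibroblast marker as higher and 4 as lower (-1.44). The leukocyte marker that passed as lower and the epithelial counts of this contrast are near the shares of all genes. The dendritic sum under PBS was 4.45 to 5.40 FPKM in normal, 1.95 to 2.56 FPKM in MMTV-PyMT and 5.99 to 7.53 FPKM in implanted ECs. The part of cell makeup in the differences of members under PBS was not tested.

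Calls under PBS on Irf1 and Irf5 were close to the threshold. Irf1 between implanted and normal ECs lost the call on recovered read totals (adjusted p = 0.185), after quantile normalization (0.173) and without normal PBS 1 (0.0723), normal PBS 2 (0.0549) or implanted PBS 1 (0.114). Irf5 between MMTV-PyMT and normal ECs lost it after quantile normalization (0.160) and without normal PBS 2 (0.0528), normal PBS 3 (0.0676) or MMTV-PyMT PBS 1 (0.0699). Irf5 between implanted and MMTV-PyMT ECs lost it after quantile normalization (0.0887) and without implanted PBS 3 (0.115), MMTV-PyMT PBS 1 (0.0701) or MMTV-PyMT PBS 2 (0.0502). Irf2 between implanted and normal ECs gained it on recovered read totals (-0.41, adjusted p = 0.00258), in a fit of only these groups (0.0230) and without normal cGAMP 3 (0.0464) or MMTV-PyMT cGAMP 1 (0.0427). The Irf7 level of MMTV-PyMT PBS 2, 19.2 FPKM, decided the difference between MMTV-PyMT and normal ECs, which was 0.49 (adjusted p = 0.280) with it and -0.06 (adjusted p = 0.876) without it. Without MMTV-PyMT PBS 1 that difference was 0.97 (adjusted p = 0.0203).

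The makeup of the IRF signal followed these levels. FPKM are per length, so levels of different genes can be set side by side. Summed over the 6 members, the level was 63.6 ± 2.21 FPKM (SD, n = 3) in normal PBS, 50.1 ± 6.46 in MMTV-PyMT PBS and 129 ± 29.1 in implanted PBS libraries. Under cGAMP it was 241 ± 12.4, 238 ± 17.0 and 446 ± 57.0 FPKM. These sums rest on the authors' scaling, with denominators of 0.735 to 0.830 times the reads in implanted cGAMP libraries and 1.09 to 1.15 times in normal ones. On read totals the excess of implanted over normal cGAMP libraries would be smaller. Irf1 made up 57.9% of the sum in normal PBS libraries and 31.8% in implanted cGAMP libraries. Irf7 made up 9.17% in the former, 35.0% in implanted PBS and 43.0% in implanted cGAMP libraries, where it exceeded Irf1 in every library. In implanted ECs Irf9 made up 12.7% of the sum under PBS and 6.32% under cGAMP, although its own level rose, and Irf5 made up 1.01% and 3.97%.

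**Figure D4:**
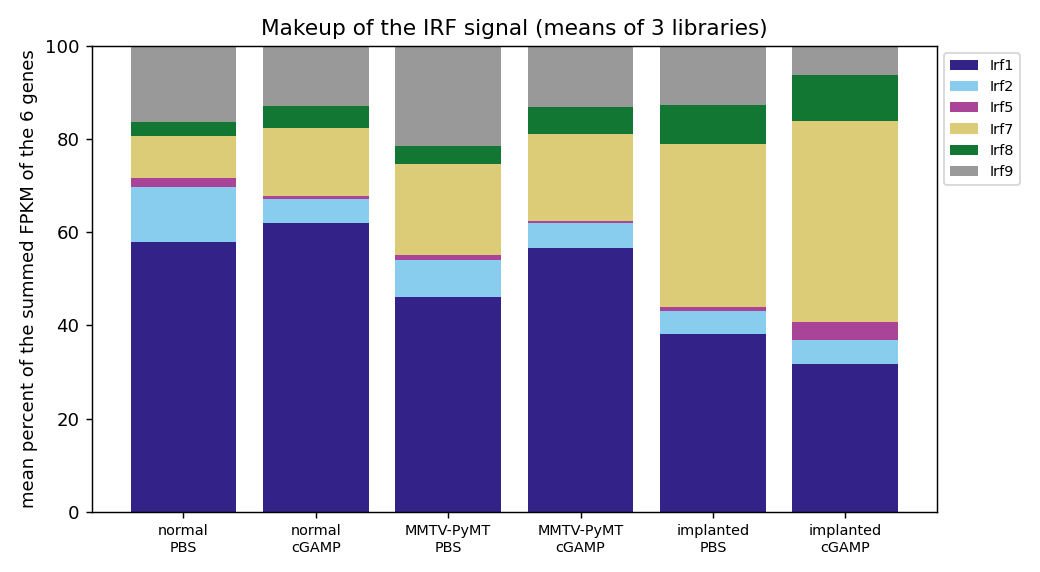
Stacked bars of the mean percent that each member contributes to the summed FPKM of the 6 genes, by group (means of 3 libraries, so bars reach 100). Irf7 takes 43.0% in implanted cGAMP libraries against 14.4% (normal cGAMP) and 18.6% (MMTV-PyMT cGAMP).

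Among themselves, members fell along different lines over the 18 libraries. The Pearson r of log2(FPKM + 1), given as a description over libraries that share tissue and treatment, was 0.96 for Irf1 with Irf9 and 0.96 for Irf7 with Irf8, and lowest for Irf5 with Irf9 (0.50) and with Irf1 (0.58). The tested genes most alike to each member on the same measure were Rnd1 (0.98), Mx2 (0.97) and Gm49730 (0.97) for Irf1, and Ifi203 (0.99), Vcam1 (0.98) and Tor3a (0.98) for Irf2. For Irf7 they were Ifi44 (0.98), Tap1 (0.98) and Lgals9 (0.97), for Irf8 Cxcl11 (0.99), Upp1 (0.99) and Tap1 (0.99), and for Irf9 Irgm1 (0.98), Ifit1 (0.98) and Oasl1 (0.97). Irf5 stood nearest to Idnk (0.97), 2310043P16Rik (0.97) and Il18rap (0.97).

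Relatives of the members were counted from a fixed list. Of all tested genes, 13.7% passed as higher and 18.2% as lower under cGAMP in normal ECs, 7.42% and 4.57% in MMTV-PyMT ECs, and 20.3% and 18.8% in implanted ECs. Of 6 IRF relatives and IRF-binding proteins, 0 passed as higher and 4 as lower in normal ECs, 0 and 1 in MMTV-PyMT ECs, and 2 and 2 in implanted ECs (median log2 changes -0.44, -0.06 and -0.28). Irf3 was at 7.86 FPKM under PBS and 5.07 under cGAMP in normal ECs (adjusted p = 0.00663), and at 5.39 and 6.07 FPKM in MMTV-PyMT ECs (adjusted p = 0.514) and 8.21 and 6.57 FPKM in implanted ECs (adjusted p = 0.104). Irf4, a factor of lymphocytes, rose in implanted ECs from 0.683 to 2.62 FPKM (adjusted p = 0.0261), with 4.85 FPKM in implanted cGAMP 2 and 1.78 and 1.23 FPKM in the others. In normal ECs its highest value, 2.83 FPKM, was again in normal cGAMP 1.

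Around the members, genes of the same pathway were counted by role, to be read against the same shares of all genes (13.7%, 7.42% and 20.3% higher, and 18.2%, 4.57% and 18.8% lower). Of 10 interferon receptors, JAK kinases and STATs, 5, 5 and 6 passed as higher and 2, 0 and 1 as lower in normal, MMTV-PyMT and implanted ECs (median changes 0.19, 0.30 and 0.56). Jak2, a kinase of the interferon-gamma receptor, rose in all 3 tissues, by 1.27, 1.23 and 2.13. Mean FPKM of Ifnar1 was lower under cGAMP, from 13.8 to 11.0 (normal), 16.9 to 16.5 (MMTV-PyMT) and 20.1 to 14.7 (implanted). Of 11 activators upstream of IRFs, 3, 3 and 6 passed as higher and 4, 0 and 2 as lower (median changes -0.07, 0.02 and 0.34). Myd88 rose by 1.25, 1.20 and 1.74, and Tlr3, a sensor of double-stranded RNA, by 1.40, 1.85 and 2.7. Mavs went the other way in mean FPKM, from 8.56 to 5.75 (normal), 5.72 to 5.06 (MMTV-PyMT) and 6.43 to 3.18 (implanted). Of 6 tested DNA-binding partners, 3, 1 and 3 passed as higher and 1, 0 and 0 as lower (0.16, 0.20 and 0.51). Batf2, a partner of IRF1, went from 1.04 to 8.07 FPKM in normal, from 0.411 to 8.35 in MMTV-PyMT and from 9.34 to 73.1 in implanted ECs (adjusted p = 2.06e-06, 1.23e-07 and 2.71e-08). Batf3, a partner of IRF8 in dendritic cells, rose in normal ECs (0.550 to 2.12 FPKM, adjusted p = 0.000238) and in implanted ECs (1.46 to 2.40 FPKM, adjusted p = 0.0370), and was at 0.617 and 1.24 FPKM in MMTV-PyMT ECs (adjusted p = 0.0630).

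Genes that restrain interferon signalling or turn over IRF proteins passed as higher in 3, 3 and 6 of 8 cases and as lower in none. For these and the 20 targets below, the shares of all genes were 13.7%, 7.42% and 20.3% higher and 18.2%, 4.57% and 18.8% lower. Usp18, which blocks the interferon receptor, went from 2.55 to 57.9 FPKM in normal, from 2.16 to 82.7 in MMTV-PyMT and from 11.2 to 280.7 in implanted ECs (adjusted p = 8.86e-09, 6.14e-10 and 7.50e-10). Of 20 targets with an ISRE or IRF element, 15, 17 and 20 passed as higher and 0 as lower in each tissue (median changes 2.04, 2.52 and 2.65). Cxcl10, a chemokine for T cells, stood at 1.07 and 426 FPKM (normal PBS and cGAMP), 0.825 and 385 FPKM (MMTV-PyMT) and 18.5 and 1309 FPKM (implanted). Ciita, the master factor of MHC class II genes, passed in implanted ECs, from 3.91 to 7.73 FPKM (adjusted p = 0.00606), and not in normal (adjusted p = 0.713) or MMTV-PyMT ECs (adjusted p = 0.973). Under PBS, 19 of these 20 targets passed as higher in implanted than in normal ECs (25% of all genes, median difference 1.49), as did Irf7 and Irf8. Between MMTV-PyMT and normal ECs, 1 passed as higher (29.8% of all genes) and 11 as lower (26.6%), with a median difference of -0.83. Between implanted and MMTV-PyMT ECs, 18 passed as higher (20.8%) and 0 as lower (24.6%), with a median of 2.41.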

How the data were processed

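The authors sorted ECs, made directional libraries, checked reads with FastQC, aligned them to mm10 with STAR 2.7 and counted them per gene with HTSeq. The authors deposited 1 table of FPKM values for 16248 genes in 18 libraries, and the step from counts to FPKM is not given in the sources used here. Columns without a matched sample numbered 0. The 6 columns that carry only a treatment were taken as normal ECs because no other tissue was left. No value was 0, so genes are listed only where detected in every library. Genes outside the table, among them the adipocyte markers (0 of 3 listed), were not analysed here.

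FPKM steps gave back whole reads for 16247 genes (99.99%, within 0.05 reads), with exon lengths of GENCODE M21 for 15778 of them. The FPKM denominators were 0.735 to 1.15 times the read totals, and lowest in the implanted cGAMP libraries (0.735 to 0.830). Genes with at least 1 FPKM in at least 3 libraries (13983) were tested with limma 3.58.1 in R 4.3.3 on log2(FPKM + 1), which understates changes of low genes, with a trend and 1 mean per group over all 18 libraries. There were 9 comparisons, with 2-sided p-values adjusted over all tested genes by the Benjamini-Hochberg method. Replicates are the libraries the labels give. The study states 3 mice per group but which library came from which experiment was not stated, so experiments could not be entered in the fit. All replicate pairs differed by more than sampling noise. Reads carry no molecular identifiers, so read numbers cover counting error only.

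All 6 members were described in every library, and values are also given for relatives, partners and regulators (Stat2, Irf3, Irf4, Spi1, Batf2, Batf3 and Usp18, with others of that rule not reported here) and the 3 genes most alike to each member. Other pathway genes were counted by list. Jak2, Myd88, Tlr3, Ifnar1, Mavs, Cxcl10, Ciita, Clec9a, Itgax, Xcr1, Epcam, Krt8 and Pecam1 were named after their values were seen. So were the named leukocyte and myeloid markers (Ptprc, Cd53, Coro1a, Laptm5, Cd52, Cd14, Tyrobp and Fcer1g). The members and lists were chosen with earlier results of these data known. The 2 of 7 lymphoid markers that were listed summed to 0.324 to 7.72 FPKM as group means. The script was tested on simulated data. Alternatives were another pseudocount, no filter, 2 other scalings, voom on recovered reads, a fit of only the groups compared, the replicate number as a block, leaving out each library, and leaving out the libraries richest in leukocyte markers, chosen after seeing the data.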

Additional observations from a re-analysis of the deposited data

Results flagged for a closer look

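The cGAMP effect differed between tissues for 4 members by the limma test of the difference itself (adjusted p under 0.05), in 7 contrasts. The rise of Irf2 was larger by 0.79 on the log2(FPKM + 1) scale in MMTV-PyMT than in normal ECs and by 1.07 in implanted than in normal ECs. The rise of Irf5 was larger in implanted ECs, by 2.65 against normal and by 2.42 against MMTV-PyMT ECs. Irf9 gave -0.73 for implanted against normal and -0.68 for implanted against MMTV-PyMT ECs, and Irf1 gave -0.998 for implanted against MMTV-PyMT ECs. These contrasts share libraries. All 7 passed again without normal cGAMP 1 and implanted cGAMP 2, the libraries richest in leukocyte markers of their groups.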

How the results depend on the processing

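The 18 effects of cGAMP on members within a tissue kept their direction under each of 26 alternatives, and a call was lost in 15 of the resulting values, all for Irf5 in MMTV-PyMT ECs. The 1 effect that did not pass, that of Irf5 in normal ECs, passed under none of them. The 7 differences of the cGAMP effect that passed did so under every alternative. Some differences that did not pass changed sign. The difference of Irf7 between MMTV-PyMT and normal ECs under PBS, 0.49, both changed sign without MMTV-PyMT PBS 2 and passed without MMTV-PyMT PBS 1 (adjusted p = 0.0203). On recovered read totals, Irf5 gave -0.0735 between implanted and normal ECs under PBS. Quantile normalization gave -0.0141 for Irf8 in the cGAMP effect of MMTV-PyMT against normal ECs and -0.0523 for Irf9 between these tissues under PBS. Without the libraries richest in leukocyte markers, Irf9 gave 0.00494 in the cGAMP effect of MMTV-PyMT against normal ECs.

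Leaving out 1 library at a time gave, under PBS, -0.12 to 0.16 for Irf5 between implanted and normal ECs and, between MMTV-PyMT and normal ECs, -0.0624 to 0.97 for Irf7, -0.0568 to 0.17 for Irf8 and -0.0171 to 0.0800 for Irf9. For the cGAMP effect it gave -0.63 to 0.41 for Irf7 and -0.10 to 0.00494 for Irf9 in MMTV-PyMT against normal ECs, and for Irf7 -0.70 to 0.33 in implanted against MMTV-PyMT and -0.46 to 0.0157 in implanted against normal ECs. Members past the test of MMTV-PyMT against normal ECs numbered 1 to 2, with Irf1 added without implanted cGAMP 1 or MMTV-PyMT PBS 1. Over all genes, 1676 passed for cGAMP in MMTV-PyMT ECs, but 3282 on recovered read totals and as few as 866 without MMTV-PyMT cGAMP 2. For the difference between MMTV-PyMT and normal ECs 1171 passed, and 626 without normal PBS 3. Scaling by recovered reads moved the median change of all genes by -0.11 in MMTV-PyMT and -0.23 in implanted ECs, and genes past the test as higher and lower in implanted ECs went from 2841 and 2623 to 1695 and 5914.

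Same-numbered libraries within a tissue deviated together in 1 of 9 pairs (r over 0.1, range -0.29 to 0.26). With 3 libraries per group, this cannot decide if the numbers pair the samples. With the replicate block, 5 of 6 members passed in MMTV-PyMT ECs (Irf5, adjusted p = 0.0724), and 1483 in place of 1676 genes passed there. The cause of these changes was not tested. Irf5 was counted least, with as few as 15 reads in a library.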
